A study of Mus musculus and Homo sapiens with 41 samples.

Results

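The phagocyte NADPH oxidase is the enzyme complex with which neutrophils and macrophages make superoxide. Its membrane part, a flavocytochrome, passes electrons from NADPH to oxygen, and its cytosolic subunits move to the membrane when the cell is stimulated. A Rac GTPase joins them there and completes the active enzyme. The oxidase is best known from mature phagocytes, while granulocyte-monocyte progenitors (GMPs) are the bone marrow cells that give rise to them. Expression of 6 oxidase genes was followed here, namely Cybb, Cyba, Ncf1, Ncf4, Rac1 and Rac2. They were matched by gene symbol. All 6 were among the 53756 genes of the GMP table, and 5 were among the 13238 genes of the 416b table. Cybb was not analysed in 416b cells, whose table lists genes with a read in both libraries.

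RNA-seq came from a loss and a gain of PLZF, the transcription factor encoded by Zbtb16. The GMPs were Lin-, Cd45+, c-Kit+, Sca-1-, Cd34+ and FcγR+ cells sorted from lethally irradiated C57BL/6 Cd45-1 hosts that had been reconstituted with bone marrow of WT or Zbtb16lu/lu Cd45-2 donors, so the cells of both genotypes had passed through a transplantation. The luxoid mutation is carried in the germ line. An antibody to the donor form, Cd45-2, is among the reagents given for cytometry, and mature cells bearing Cd11b, Gr-1 or other lineage markers were depleted before the sort. The 416b cells, a Cd34+ murine myeloid line, were transduced with a PLZF-Flag or an Empty vector lentivirus that also carried GFP, and GFP+ cells were sorted. There were 2 libraries of each genotype and 1 library of each 416b condition. The GMP libraries held 37562999 to 40170636 reads on genes, and the 416b libraries held 54529257 in Empty vector and 19995591 in PLZF-Flag. Values are normalized counts, that is, reads per gene divided by the size factor of the library, and differences on the log2 scale are between log2(normalized count + 1).

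Zbtb16 itself had 705 and 828 normalized counts in the WT libraries and 269 and 369 in the Zbtb16lu/lu libraries, or -1.28 on the log2 scale (adjusted p = 0.299, limma). In 416b cells it had 382 normalized counts in Empty vector and 2541 in PLZF-Flag, which includes any reads from the vector. GMP markers were abundant in the sorted GMPs, where Mpo, the myeloperoxidase of primary granules, had 477326 to 552003 normalized counts. In 416b cells Mpo had 12.1 and 3.3, Elane was not listed, and Itga2b, an integrin of megakaryocytes and progenitors, had 22446 and 22145. Cd34 had 11059 and 8823 in 416b cells, and other granule genes of the GMP list were listed there too, Ctsg with 2318 and 1676 and Prtn3 with 470 and 435.

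The windows around the RefSeq start sites of Cybb, which carries the catalytic chain, and Ncf1, the member that differed most in 416b cells, are printed to show these starts. Each runs from 250 bases before the start to 30 bases after it, on the minus strand of GRCm38.p6. For Cybb this start lies inside the GENCODE gene used for exon length (9435252 to 9487771), which begins further upstream. Capitals mark matches, on either strand, to 4 short motifs that were searched. The first was GAGGAA, the core bound by PU.1, and the next was CCAAT, known from many promoters. The third was GGGCGG, called the GC box, and the last TATAAA, the core of the TATA box. Matches are runs of letters and not measured binding sites.
Cybb (chrX:9469295-9469574): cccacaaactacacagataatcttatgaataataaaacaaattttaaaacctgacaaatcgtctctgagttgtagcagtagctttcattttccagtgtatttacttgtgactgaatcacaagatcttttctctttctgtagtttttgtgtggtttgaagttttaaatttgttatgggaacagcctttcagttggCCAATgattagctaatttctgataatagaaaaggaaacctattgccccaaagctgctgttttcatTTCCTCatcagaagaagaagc
Ncf1 (chr5:134229596-134229875): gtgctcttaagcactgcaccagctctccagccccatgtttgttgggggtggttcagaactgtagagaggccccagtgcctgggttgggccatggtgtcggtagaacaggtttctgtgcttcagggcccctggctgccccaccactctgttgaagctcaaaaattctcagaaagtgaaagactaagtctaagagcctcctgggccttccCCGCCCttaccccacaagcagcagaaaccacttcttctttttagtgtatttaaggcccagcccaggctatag

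The Cybb window held a CCAAT match that begins 56 bases before the start site and, on the opposite strand, a GAGGAA match that begins 10 bases after it. Ncf1 held 1 GC box match on the opposite strand, beginning 42 bases before the start. TATAAA was in neither. Among all 32851 RefSeq promoter windows of 300 bases, 28.3% held GAGGAA, 37.4% CCAAT, 35.7% the GC box and 13.6% TATAAA on either strand, so none of these matches is rare. The GC content of the printed window was 34.3% for Cybb and 53.9% for Ncf1.

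None of the 6 genes passed the test between Zbtb16lu/lu and WT GMPs (limma on log2 values, Benjamini-Hochberg adjustment over 20531 genes, threshold 0.08). The same was true of all 20531 genes, of which 0% passed, with 2028 under an unadjusted p of 0.05. Of the 6 differences, 5 were above 0 and 1 below, and their median was 0.13 on the log2 scale beside -0.0063 for all tested genes. Both Zbtb16lu/lu libraries lay above both WT libraries for 3 members (Cyba, Ncf4 and Rac2), a pattern seen in 21.7% of tested genes. Both lay below for Rac1, as in 22.1% of tested genes. The genotypes overlapped for Cybb and Ncf1. With 2 libraries against 2, the smallest two-sided exact permutation p is 0.333, so no single gene can be called from its own values.

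**Figure D1:**
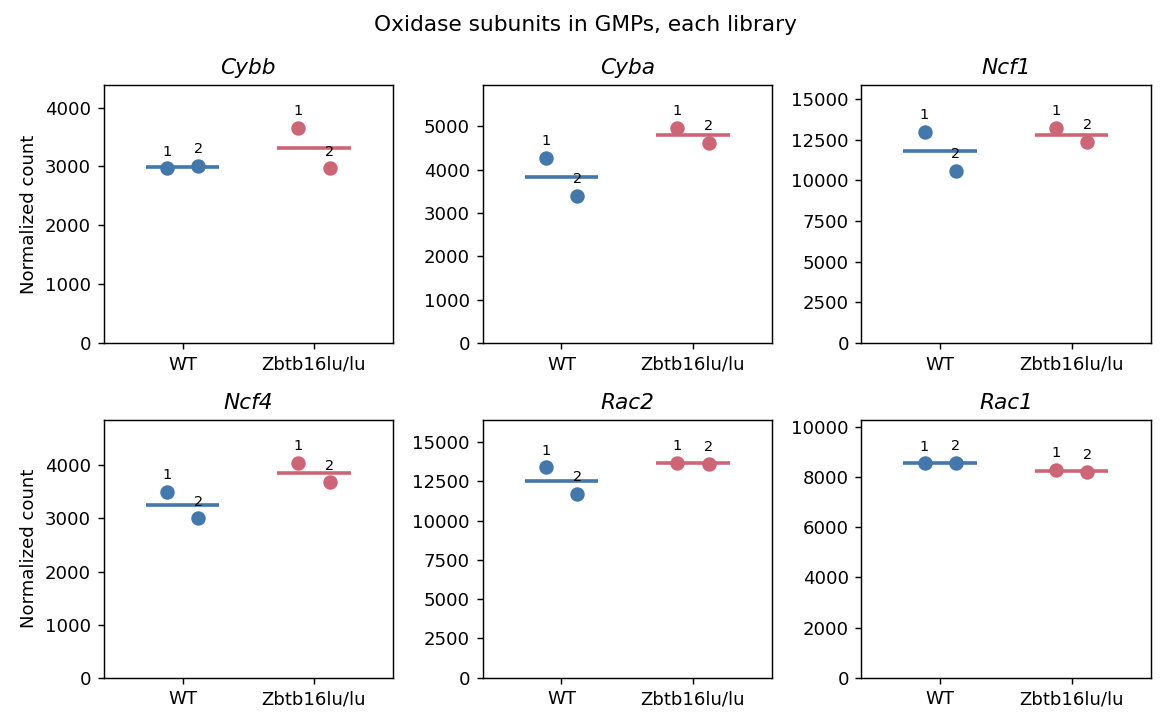
Normalized counts of the 6 oxidase genes in GMPs, with each library as a numbered point and the mean of each genotype (n = 2) as a line. Cyba, Ncf4 and Rac2 lie higher in both Zbtb16lu/lu libraries, Rac1 lies slightly lower, and Cybb and Ncf1 overlap between genotypes.

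Cybb encodes NOX2, the catalytic flavocytochrome chain that carries the electrons (chromosome X, 9435252 to 9487771, minus strand, GENCODE on GRCm38). It had 2968 and 3005 normalized counts in WT, against 3654 and 2967 in Zbtb16lu/lu. Only the first Zbtb16lu/lu library was high, and the second fell just below both WT libraries. The means were 2987 ± 26.2 in WT and 3311 ± 486 in Zbtb16lu/lu (SD, n = 2). The difference was 0.14 ± 0.13 (log2, SE; 95% interval -0.16 to 0.44; limma adjusted p = 0.728). Correcting the library values for GC content and gene length gave 0.27 (limma adjusted p = 0.60), which made Cybb the largest of the 6.

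Cyba encodes the smaller flavocytochrome chain, which stabilizes NOX2 and offers a docking site for the cytosolic subunits (chromosome 8, 122424776 to 122432930, minus strand). Its normalized counts were 4270 and 3405 in WT, against 4967 and 4624 in Zbtb16lu/lu. The groups did not overlap, but the WT libraries differed from each other by 0.33 on the log2 scale, as much as the genotypes did. The difference was 0.33 ± 0.14 (log2, SE; 95% interval 0.02 to 0.64), the largest of the 6 without that correction, with a limma adjusted p of 0.491. Cyba was the 1 member under an unadjusted limma p of 0.05 (0.0405), which 5.5% of tested genes reached in this direction. After the correction for GC content and gene length, the difference of Cyba, which has the shortest and most GC-rich exons of the 6 (1039 bp, 59.3% GC), was 0.11.

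Ncf1 encodes the cytosolic organizer subunit, whose phosphorylation frees it to bind the Cyba protein (chromosome 5, 134220053 to 134229625, minus strand). It had 12992 and 10576 normalized counts in WT, against 13220 and 12385 in Zbtb16lu/lu. WT library 2 was low and the other 3 were close together. The difference was 0.13 ± 0.13 (log2, SE; 95% interval -0.17 to 0.42; limma adjusted p = 0.752), and 0.05 after the correction.

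Ncf4 encodes a cytosolic subunit that binds phosphatidylinositol 3-phosphate on phagosomes (chromosome 15, 78244801 to 78262580, plus strand). Its normalized counts were 3497 and 3000 in WT, against 4051 and 3678 in Zbtb16lu/lu, without overlap. The difference was 0.25 ± 0.13 (log2, SE; 95% interval -0.04 to 0.54; limma adjusted p = 0.545), and 0.13 after the correction for GC content and length.

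Rac2, the Rac GTPase of blood cells that serves the oxidase of neutrophils (chromosome 15, 78559167 to 78572783, minus strand), had 13389 and 11679 normalized counts in WT, against 13680 and 13621 in Zbtb16lu/lu. WT library 2 was the low one, and WT library 1 lay close to both Zbtb16lu/lu libraries. The difference was 0.13 ± 0.12 (log2, SE; 95% interval -0.14 to 0.39; limma adjusted p = 0.72), and 0.07 after the correction for GC content and length.

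Rac1, the widely expressed Rac (chromosome 5, 143503634 to 143528036, minus strand), was the steadiest of the 6. It had 8556 and 8584 normalized counts in WT, against 8311 and 8228 in Zbtb16lu/lu, a difference of -0.05 ± 0.11 (log2, SE; 95% interval -0.29 to 0.19; limma adjusted p = 0.889). It was -0.03 after the correction for GC content and length. The sign turned with quantile normalization, under which the difference was 0.0036.

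The column names of the GMP table carry a number that looks like a date, and 1 such number is shared by WT library 1 and Zbtb16lu/lu library 2. Between these 2 libraries the members hardly differed: the log2 differences ran from -0.07 for Ncf1 to 0.11 for Cyba, with a median of 0.01. Between the other 2 libraries, Zbtb16lu/lu library 1 and WT library 2, they were 0.54 for Cyba, 0.43 for Ncf4, 0.32 for Ncf1, 0.28 for Cybb, 0.23 for Rac2 and -0.05 for Rac1, with a median of 0.30. The size of the oxidase difference thus depended on which libraries were compared. With 1 library of each genotype in a pair, a pair has no test, and the number and the library cannot be told apart.

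Leaving out WT library 1, 3 members passed the threshold in limma: Cyba (0.49, adjusted p = 0.000193), Ncf4 (0.36, adjusted p = 0.00988) and Ncf1 (0.27, adjusted p = 0.0683). In that fit 23% of all tested genes passed, and the spread came from the 2 Zbtb16lu/lu libraries alone. Leaving out any other library, 0 members passed, while 13.8% of tested genes passed without WT library 2, 0.00501% without Zbtb16lu/lu library 1 and 0.241% without Zbtb16lu/lu library 2. With all libraries, 0 members passed in DESeq2, which called 1.07% of tested genes. The log2 difference of Ncf1 was -0.02 without WT library 2, and that of Cybb was -0.01 without Zbtb16lu/lu library 1.

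Transcripts on a marker list for mature neutrophils, cells in which the oxidase is abundant, also differed between the GMP libraries. The 13 neutrophil markers were all higher in Zbtb16lu/lu by their mean (median 1.09 on the log2 scale), none passed the threshold, and 8 had an unadjusted limma p under 0.05. Of all tested genes, 49.1% were higher and 5.5% were higher with such a p. Their summed normalized count reached 16320 and 9342 for WT and 23958 and 13538 for Zbtb16lu/lu. Most of the sum came from S100a8 (8098 and 3967 in WT, 9219 and 5199 in Zbtb16lu/lu) and S100a9 (4284 and 1432, 7011 and 2953). WT library 2 was lowest for this sum, for Cyba, Ncf1, Ncf4 and Rac2, and also for the sums of the GMP, dendritic cell and B cell lists. WT library 1 lay above Zbtb16lu/lu library 2 for the neutrophil sum and for Ncf1 and, by about 1 normalized count, Cybb, and below it for Cyba, Ncf4 and Rac2. Ltf, the lactoferrin of secondary granules, had 56.7 and 11.6 in WT, against 846 and 305 in Zbtb16lu/lu, whereas Ly6g, the surface marker of mature neutrophils, was near 0 (3.0 and 4.8 against 21.1 and 19.5). Both Zbtb16lu/lu libraries lay above both WT libraries for 8 of the 13 markers (21.7% of all tested genes), among them Camp, Ngp, Mmp9 and Retnlg with log2 differences of 2.39, 2.29, 4.13 and 2.55. Those of Mmp9 (15.9 and 0 in WT, 76.3 and 65.8 in Zbtb16lu/lu) and Retnlg (29.8 and 3.9, 63.2 and 79.2) rest on low counts. Between WT library 1 and Zbtb16lu/lu library 2 all 8 markers thus went the other way from the sum. The genotypes overlapped for the other 5, namely Lcn2, Cxcr2, S100a8, S100a9 and Itgam. Lcn2 had 802 and 513 in WT libraries and 783 and 597 in Zbtb16lu/lu libraries, and the log2 differences of these 5 were 0.09, 0.21, 0.29, 0.88 and 0.21. The 12 monocyte and macrophage markers summed to 77769 and 93306 in WT, against 111942 and 105395 in Zbtb16lu/lu, without overlap. Of 11 tested genes, 10 were higher, 6 of them with an unadjusted limma p under 0.05 (5.5% of all tested genes), and none passed the threshold. Of the neutrophil list, Itgam is also among the receptors of the burst. The sort took c-Kit+ and Cd34+ cells after depletion of those bearing Cd11b, Gr-1 or 7-4, and the purity of the sorted cells was not examined. The part of these transcripts in the oxidase values was not tested, and in bulk RNA more cells of a type cannot be told apart from more RNA per cell.

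**Figure D2:**
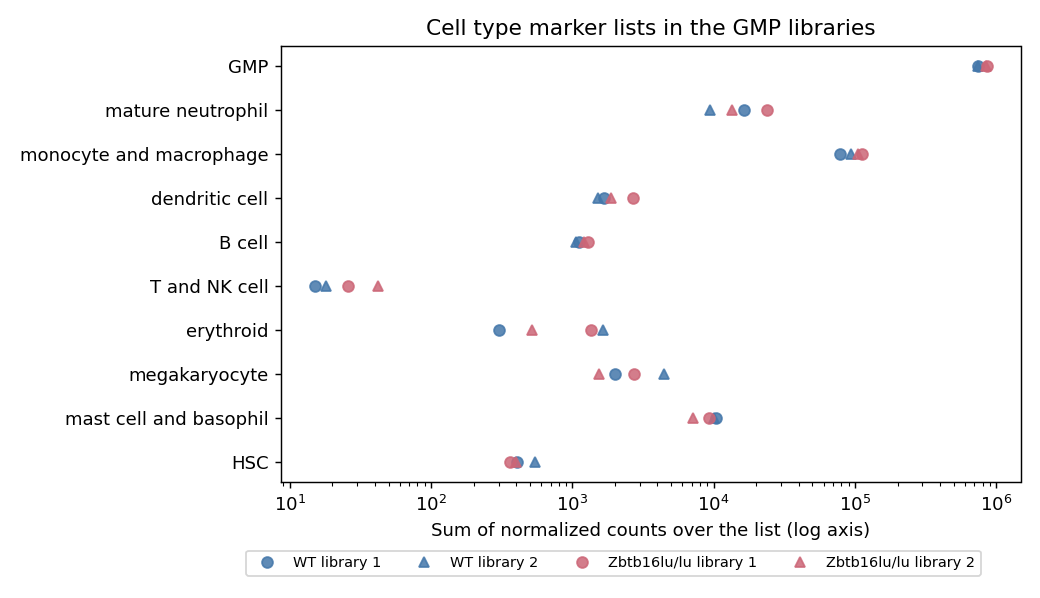
Sum of normalized counts over each cell type marker list (log axis) in the 4 GMP libraries, with WT in blue, Zbtb16lu/lu in red, library 1 as circles and library 2 as triangles. The neutrophil sum, most of it from S100a8 and S100a9, is lowest in WT library 2 (9342) and highest in Zbtb16lu/lu library 1 (23958). The GMP list far exceeds the others.

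Markers of other lineages were read in the same way, and none passed the threshold. The megakaryocyte list summed to 1991 and 4474 in WT, against 2741 and 1550 in Zbtb16lu/lu, and the erythroid list to 301 and 1654 against 1349 and 521, so both overlapped. The mast cell and basophil list had 6 of 6 genes lower (sums 10319 and 9981 against 9196 and 7141), and the HSC list summed to 407 and 542 against 364 and 400. Dendritic cell markers summed to 1667 and 1512 against 2678 and 1869, B cell markers to 1120 and 1069 against 1291 and 1203, and T and NK cell markers to at most 42. The GMP list summed to 746976 and 738891 against 858218 and 848531.

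Levels were compared between the subunits as normalized counts per kb of exon. In WT GMPs the order was Rac2 (3764 to 4315), Cyba (3278 to 4110), Ncf1 (2887 to 3547), Rac1 (1903 to 1909), Ncf4 (1485 to 1731) and Cybb (511 to 517). Neighbouring ranges overlapped among Rac2, Cyba and Ncf1, and the lower 3 stood apart from each other. In Zbtb16lu/lu GMPs the order was Cyba (4451 to 4780), Rac2 (4390 to 4409), Ncf1 (3381 to 3609), Ncf4 (1821 to 2005), Rac1 (1830 to 1848) and Cybb (511 to 629), with overlap between Ncf4 and Rac1 only. Cybb was lowest per kb in all 4 libraries, also with the length of the longest RefSeq mRNA, by which Cyba was highest in all 4.

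The flavocytochrome chains, whose proteins pair with each other, were far apart per length and close without it. In normalized counts Cyba exceeded Cybb by 1.44- and 1.13-fold in WT libraries and by 1.36- and 1.56-fold in Zbtb16lu/lu libraries. With exons of 1039 and 5808 bp, it exceeded Cybb by 8.04- and 6.34-fold per kb of exon in WT and by 7.60- and 8.71-fold in Zbtb16lu/lu. The ratios overlapped between genotypes (log2 difference 0.19, two-sided exact permutation p = 0.667). Ncf1 exceeded Ncf4 by 2.05- and 1.94-fold per kb in WT and by 1.80- and 1.86-fold in Zbtb16lu/lu, a log2 difference of -0.13 with the smallest p the design allows (0.333, exact permutation test).

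Of the 2 Rac genes, Rac2 was higher in every GMP library. Per kb of exon the WT libraries held 2.27 and 1.97 times as much Rac2 as Rac1 and the Zbtb16lu/lu libraries 2.38 and 2.40 times, without overlap (log2 difference 0.18, exact permutation p = 0.333). With RefSeq mRNA lengths the WT ratios were 1.22 and 1.06 and the Zbtb16lu/lu ratios 1.28 and 1.29. In 416b cells the ratio was lower than in any GMP library, an order that the choice of length cannot change. It was 1.27 and 1.35 per kb of exon and 0.683 and 0.726 per kb of RefSeq mRNA in Empty vector and PLZF-Flag. The 2 experiments used different library kits, and the difference between them was not tested.

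**Figure D3:**
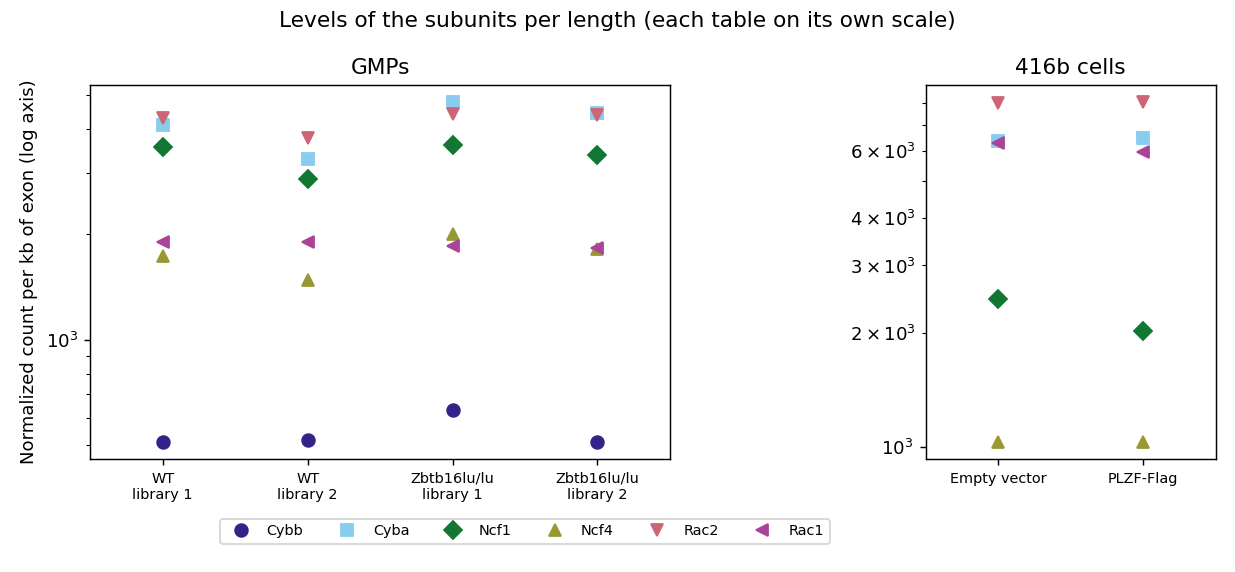
Level of each subunit in every library as normalized counts per kb of exon (log axes), with GMPs on the left and 416b cells on the right, each table on its own scale. Cybb is lowest in all 4 GMP libraries (511 to 629), and Rac1 stands among the highest genes in 416b cells (5970 and 6300) but not in GMPs.

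The 5 genes with the pattern most like that of Cybb over the 4 GMP libraries were Gm5850, D430001F17Rik, Urod, Dstn and AC161269.1, with distances of 0.0051, 0.0286, 0.0318, 0.0415 and 0.0421 between centred log2 values. They came from 13831 genes with a mean of at least 100. Urod, an enzyme of heme synthesis, had 1690 and 1700 normalized counts in WT, against 2076 and 1727 in Zbtb16lu/lu, so it shared the single high library. No other oxidase gene was near: Ncf4 came closest at place 1552 (distance 0.23), and Cyba was at place 4990 (0.34). The pattern rests on 4 points, and many genes fall close by.

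Genes that serve the oxidase were also read in GMPs, and none passed the threshold. Of 7 tested partners, 5 were higher and 2 lower, with a median of 0.05. Hvcn1, the proton channel that balances the charge of the burst, had a difference of 0.12 (log2; limma adjusted p = 0.72), and Rap1a, the small GTPase found with the flavocytochrome, one of -0.26 (adjusted p = 0.551). BC017643, the chaperone of the flavocytochrome that is also called Cybc1, had 3323 and 2760 normalized counts in WT, against 3073 and 2993 in Zbtb16lu/lu. Prdx6 and Cdc42 differed by 0.05 and -0.09.

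Among 9 other NADPH oxidase genes, 2 could be tested and Nox3 was at 0 in all libraries. Nox1, a related catalytic chain best known from colon epithelium, had 211 and 219 normalized counts in WT, against 125 and 117 in Zbtb16lu/lu. The groups did not overlap, with a difference of -0.82 ± 0.23 (log2, SE; limma adjusted p = 0.41). Its unadjusted limma p was under 0.05, as for 4.37% of tested genes in this direction, and no member was among these. Noxo1, its organizer, had 102 and 68.5 in WT, against 98.4 and 122 in Zbtb16lu/lu. Both stayed far below Cybb.

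The 11 tested kinases that act on the cytosolic subunits split into 5 higher and 6 lower (median -0.02). Prkcb differed by 0.16 and Mapk3 by 0.16, Prkca by -0.51 and Pak2, a target of Rac, by -0.24 (limma adjusted p from 0.51 to 0.725). Of 16 Rac exchange factors, GAPs and RhoGDIs, 11 were higher (median 0.04). Prex1, the Rac exchange factor driven by G protein signals, had 3496 and 3596 normalized counts in WT, against 4112 and 4442 in Zbtb16lu/lu, a difference of 0.27 (adjusted p = 0.494, limma). Tiam2 differed by 0.36, Dock5 by -0.18 and Arhgdib, which holds Rac in the cytosol, by -0.15. The 10 phosphoinositide kinases and phosphatases split evenly (median -0.005), with Pik3cg at 0.21, Pik3cd at 0.14, Pik3ca at -0.21 and Pik3r5 at -0.37.

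Receptors that trigger the burst had a higher median, 0.21 over 15 tested genes, of which 11 were higher and none passed the threshold. Csf2ra, the GM-CSF receptor chain, had 1273 and 1059 normalized counts in WT, against 1878 and 1980 in Zbtb16lu/lu, a difference of 0.73 (limma adjusted p = 0.299). Ptafr, the receptor of platelet-activating factor, differed by 0.83 (adjusted p = 0.491, limma). Tlr4 and Fcgr4 lay slightly below 0, at -0.12 and -0.08. In this list 6 of 15 genes had an unadjusted limma p under 0.05 and a higher value, as did 5.5% of all tested genes.

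The 11 transcription factors known to act on the Cybb promoter had a median of 0.21 on the log2 scale, with 7 higher and none past the threshold. Irf8, which drives monocyte fate, had 9786 and 9305 normalized counts in WT, against 14277 and 13887 in Zbtb16lu/lu, a difference of 0.56 ± 0.11 (log2, SE; limma adjusted p = 0.299). Spi1, which encodes PU.1, had 4723 and 3819 in WT, against 5063 and 4799 in Zbtb16lu/lu (0.21; adjusted p = 0.598, limma). Hoxa9 differed by 0.33, Elf1 by -0.06 and Meis1 by -0.18. The Irf8 libraries did not overlap between genotypes, whereas those of Cybb did.

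Peroxide and superoxide handling genes were balanced, with 9 of 19 higher (median -0.07). Prdx4 and Gpx3 differed by 0.51 and 0.48, Gclm, a subunit of the enzyme that begins glutathione synthesis, by -0.35 (limma adjusted p = 0.439) and Epx by -0.23. The 8 tested genes of NADPH supply split evenly (median 0.0020 as a log2 difference). Tkt and Taldo1 of the pentose phosphate pathway differed by 0.22 and 0.15, and Pgd and Me2 by -0.05 and -0.12.

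In 416b cells 4 of the 5 listed subunits lay between -0.08 and 0.03 on the log2 scale in PLZF-Flag relative to Empty vector, and Ncf1 was lower, at -0.28. With 1 library per condition there was no test, and the 95% intervals (Clopper-Pearson, on recovered reads) cover counting error only. The median log2 ratio of the 5 genes was 0.00086 beside -1e-04 over 11836 genes with a mean of at least 10. The interval lay below 0 for 2 of the 5 genes (Ncf1 and Rac1), as for 15.9% of those genes, and above 0 for none, as for 16.1%.

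Normalized counts of Ncf1 were 8993 with Empty vector and 7406 with PLZF-Flag, giving a log2 ratio of -0.28 (counting interval -0.33 to -0.23). Only 8.6% of the 11836 genes had a lower ratio. Rac1 had 28323 and 26840, a log2 ratio of -0.08 (-0.10 to -0.05). Cyba had 6609 and 6758 (0.03, -0.02 to 0.08), Rac2 24854 and 25040 (0.01, -0.02 to 0.04) and Ncf4 2082 and 2084 (0.00086, -0.09 to 0.09). The ratio of Ncf1 to Ncf4 per kb of exon accordingly went from 2.38 in Empty vector to 1.96 in PLZF-Flag.

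**Figure D4:**
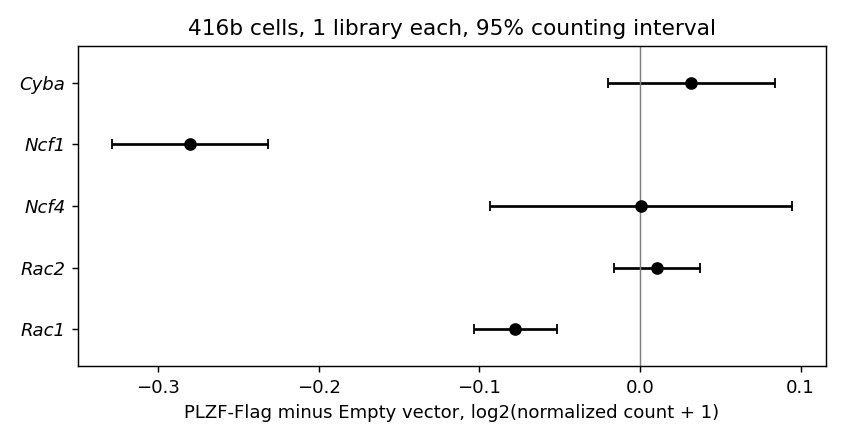
PLZF-Flag minus Empty vector in log2(normalized count + 1) for the 5 subunits listed in 416b cells, with 95% intervals for counting error from 1 library per condition. Ncf1 lies at -0.28, and the other 4 lie between -0.08 and 0.03.

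The order of levels per kb of exon in 416b cells was Rac2 (8010 and 8070), Cyba (6361 and 6505), Rac1 (6300 and 5970), Ncf1 (2455 and 2022) and Ncf4 (1031 and 1032) in Empty vector and PLZF-Flag. By RefSeq mRNA length Rac1 came first (11981 and 11354). Nox1 was listed in 416b cells with 272 and 226 normalized counts, a log2 ratio of -0.27 whose interval (-0.55 to 0.01) included 0. Hvcn1 had 85.3 and 47.9 (log2 ratio -0.82, interval -1.46 to -0.25).

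Other genes lie on the opposite strand over 3 of the members. Gm20388 spans Cyba, Gtf2ird2 overlaps Ncf1, and Daglb and Gm42502 overlap Rac1. Whether the counting used strand is not stated, so reads of these pairs may not have been told apart.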

How the data were processed

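The data used were 4 GMP libraries (2 of each genotype) and 2 libraries of 416b cells (1 of each condition). Chromatin samples of the series were not used here. The deposited signal values are featureCounts (1.5.0) read counts that the authors divided by DESeq2 size factors after alignment to mm10 with subread-align. GMP libraries were made with a stranded total RNA kit after ribosomal RNA removal, and 416b libraries with SMART-Seq v3. The authors' log2 values, fold changes and p-values were not used. GEO holds 1 sample for each genotype, and its 2 columns were taken as 2 libraries because the study describes independent extractions, more of them than the table has columns for each genotype. Nothing says whether they came from separate animals, so p-values measure the spread between these libraries, which may be technical.

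Values in each GMP column were whole multiples of its smallest value (100% within 0.01 read), and this value was taken as 1 read. In 2 columns it lies so close to 1 that recovery cannot be checked further. In 416b cells 84.8% and 85.5% of values were whole within 0.1 read. The main test was limma-trend (limma 3.58.1, R 4.3.3) on log2(normalized count + 1), which understates changes of low genes, for genes with at least 10 in at least 2 libraries, adjusted over all 20531. A threshold of 0.08 was used. edgeR 4.0.16 and DESeq2 1.42.0 were run on recovered reads as alternatives. The fits were run on simulated counts with a fixed dispersion and no difference between libraries beyond depth. That run checks the code and does not show how the tests perform on these libraries. Exon lengths came from GENCODE M21, mRNA lengths and promoters from RefSeq (3 members matched). Members and gene lists were chosen with earlier results of these data known. The genes named are the 6 members, Zbtb16, the 5 genes nearest to Cybb and, for each list of oxidase-related genes, those past the threshold or the highest 2 and lowest 2 with a mean of at least 100. Noxo1, Nox3, BC017643, Spi1, the cell type markers named singly and the genes named in 416b cells were added after their values were seen. Python 3.11.15, numpy, pandas and scipy did the rest.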

Additional observations from a re-analysis of the deposited data

How the results depend on the processing

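The 6 members stayed outside the threshold under 16 of 17 alternatives with a test, including edgeR (0 genes called, 2033 at an unadjusted p under 0.05) and DESeq2. DESeq2 called 220 genes (161 higher), or 198 with no filter, an alternative chosen after seeing the data. Leaving out each library gave 1 to 4645 genes, 0 to 3 members and a median of 0.085 to 0.25 for the members, with 3 members only without WT library 1. In these fits Cybb ranged from -0.0095 to 0.29 and Ncf1 from -0.022 to 0.27. The median was 0.012 in the libraries that share a number, where Cybb was -0.00058 and Ncf1 -0.069, and 0.30 in the others. Rac1 was 0.0036 with quantile normalization. Offsets for GC content and length moved all 6 members by over 1.5 times, Cybb away from 0 and the other 5 towards it, with a median of 0.091. The cause was not tested.

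In WT GMPs the highest member exceeded the lowest by 7.86-fold per kb of exon and by 4.20-fold with no length correction, which follows from the lengths. The 416b values stayed within their counting intervals under each alternative. No paired analysis was possible because the genotypes share only 1 of the numbers in the column names, so a block on it leaves no residual degrees of freedom. The 416b intervals cover counting error only. In GMPs each member had at least 2886 reads in every library, so there the spread between 2 libraries sets the limit.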

Other observations

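In 416b cells the receptors that trigger the burst were lower more often than higher. Of 12 with a ratio, the counting interval lay below 0 for 6 and above 0 for none (15.9% and 16.1% of all genes with a mean of at least 10), with a median log2 ratio of -0.18. Itgam, the integrin chain of the complement receptor, went from 6023 normalized counts with Empty vector to 4081 with PLZF-Flag (-0.56 as a log2 ratio, -0.63 to -0.50). Fcer1g, the signalling chain of Fc receptors, had 7813 and 6965 (-0.17, -0.22 to -0.12). Tlr4 had 462 and 382 (-0.28, -0.50 to -0.06). Among the 9 listed transcription factors of the Cybb promoter, 2 intervals lay above 0 and 2 below, with Spi1 at 0.10 (0.05 to 0.16). Each condition is 1 library, so these values have no replicate check.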
